A study of Mus musculus with 3 samples.

Results

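The genes that build motile cilia were followed in single-cell RNA counts from the hypothalamus of 8-week-old male mice. The 78 genes, out of 32285 in the files, are those whose symbols begin with Dnah, Cfap, Tekt, Rsph, Drc or Dnaaf and a digit, together with Foxj1, Spag6l, Spag17, Hydin, Ccdc39, Ccdc40, Ccdc153 and Tmem212. They comprise 33 Cfap, 16 Dnah, 8 Rsph, 5 Tekt, 5 Dnaaf and 3 Drc genes and the 8 genes chosen by name. The rule reads symbols only, but the set was picked with earlier results of these data known. Of the 16 Dnah entries, 15 are dynein heavy chain genes and Dnah2os is a noncoding RNA antisense to Dnah2. All 78 had at least 30 UMIs (unique molecular identifiers, 1 per captured transcript) over the kept cells.

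The study placed mice of similar body weight under heat exposure or control conditions and asked whether changes in hypothalamic cells persist after heat. PF stands for controls given a food intake equal to that under heat, HS for the heat-exposed state and QS for recovery once exposure had ended. A further condition named in the design, RT, was not analysed here. All 3 groups were dissociated with collagenase II and captured with the 10x Genomics 3′ kit, and each is represented by 1 library. No source used here gives the strain, the heat regime, the length of recovery or the number of mice in a library. With 1 library a group there is no replicate, so no test was made: the exact 95% intervals printed cover only counting error, and differences between animals or between preparations cannot be told apart from those between conditions.

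A motile cilium carries an axoneme, a ring of doublet microtubules around a central pair. Outer and inner dynein arms slide the doublets, radial spokes and the nexin-dynein regulatory complex control the arms, proteins inside the doublets stabilise them, and cytoplasmic factors assemble the arms before transport. In the hypothalamus, ependymal cells that line the third ventricle bear beating cilia, while tanycytes on its floor and lower walls mostly do not. FOXJ1 and RFX transcription factors are known to switch on ciliary genes in such cells.

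Totals of 100727912, 103891747 and 93295920 UMIs came from 12836 barcodes in PF, 12510 in HS and 11720 in QS, of which 11858, 11630 and 10782 were kept as cells, with medians of 6143, 6298 and 6162 UMIs. Pairs of libraries shared 31 to 42 barcodes, at most 0.390% of the smaller one. The cells formed 32 clusters, found without the 78 genes among the clustering genes and named from markers that are not among them. Other cilia genes were not left out of the clustering. The ependymal markers Dynlrb2, Fam183b, Pifo, Meig1, Ak7, Odf3b, Enkur and Tctex1d4 are themselves on the list of other axoneme genes used below. The ependymal class was thus named largely by RNA of motile cilia, with Rarres2 and Mia as its markers without a ciliary role. The ependymal-like class joined clusters 5 and 15, each of which passed all 10 ependymal markers, and had 908, 1040 and 863 cells. The tanycyte-like class joined clusters 14 and 25, which passed 7 and 10 of 11 tanycyte markers, and had 178, 477 and 322 cells. In ependymal-like cells the 10 ependymal markers summed to 8373, 8083 and 8192 CPM (UMIs per 1000000 UMIs of the class in that library) and the 11 tanycyte markers to 187, 244 and 212 CPM. The ending "-like" marks that classes were named by RNA only.

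The 78 genes made up 2.37%, 2.34% and 2.20% of all UMIs of ependymal-like cells in PF, HS and QS, or 23706, 23446 and 21970 CPM. Tanycyte-like cells followed with 3531, 2907 and 3291 CPM, which is 0.149 (0.145 to 0.153), 0.124 (0.122 to 0.126) and 0.150 (0.147 to 0.153) times the ependymal-like level. Astrocyte-like cells held 934, 902 and 876 CPM. In the other 8 compared classes the sum lay between 320 and 647 CPM. The 3 libraries kept this order of the leading 3 classes. Since clusters are drawn from genes that vary with ciliation, these levels are a description of the classes.

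**Figure D1:**
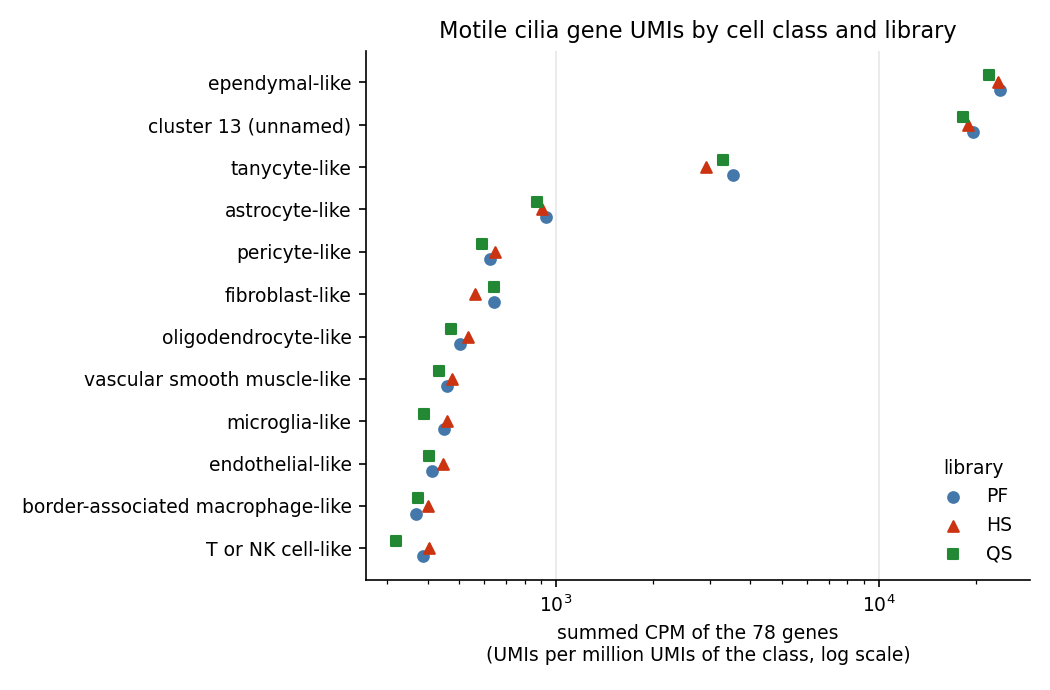
Summed CPM of the 78 genes (x axis, log scale) in each compared cell class and in the unnamed cluster 13 (y axis), with 1 point per library. Ependymal-like cells lie between 21970 and 23706 CPM, tanycyte-like cells between 2907 and 3531, and the library points of a class sit close together.

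By gene, 73 of the 78 had their highest CPM in ependymal-like cells in all 3 libraries, and 67 had over 50% of their UMIs there. The 5 exceptions were Dnah8, Dnah17, Dnah2os, Cfap97d1 and Rsph6a, none of which exceeded 1.01 CPM in ependymal-like cells of any library. Dnah2os had a mean of 7.48 CPM in endothelial-like cells and 0.971 in ependymal-like cells. Dnah8, an outer arm heavy chain known from testis, had a mean of 10.8 CPM in T or NK cell-like cells against 0.491 in ependymal-like cells. Dnah8 overlaps Glo1 on the opposite strand, Dnah17 overlaps Pgs1 and Cfap97d1 overlaps Dusp3, and no source used here says whether counting used strand, so reads of the partners cannot be told apart. Such opposite-strand overlaps exist for 40 of the 78 genes.

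Most of the set, 55 genes, had a mean of at least 100 CPM in ependymal-like cells, a further 17 lay between 10 and 100, and 6 lay below 10. The order among genes is one of UMIs: 3′ counts are not divided by transcript length, and this order is no order of RNA per length. The 3 genes above 1000 CPM, Tmem212, Ccdc153 and Cfap299, held 24.04% of the set's UMIs in this class, and the leading 12 held 48.6%. Tmem212, a transmembrane protein gene at chr3:27866066-27896368 (GENCODE M21, mm10), measured 2416, 2289 and 2212 CPM in PF, HS and QS. Ccdc153, which encodes a coiled-coil protein and lies at chr9:44240676-44247306, measured 1841, 1690 and 1814 CPM. Cfap299, a gene of 473 kb at chr5:98329304-98802047, measured 1505, 1561 and 1319 CPM. QS was the lowest library for Tmem212 and Cfap299 but not for Ccdc153.

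**Figure D2:**
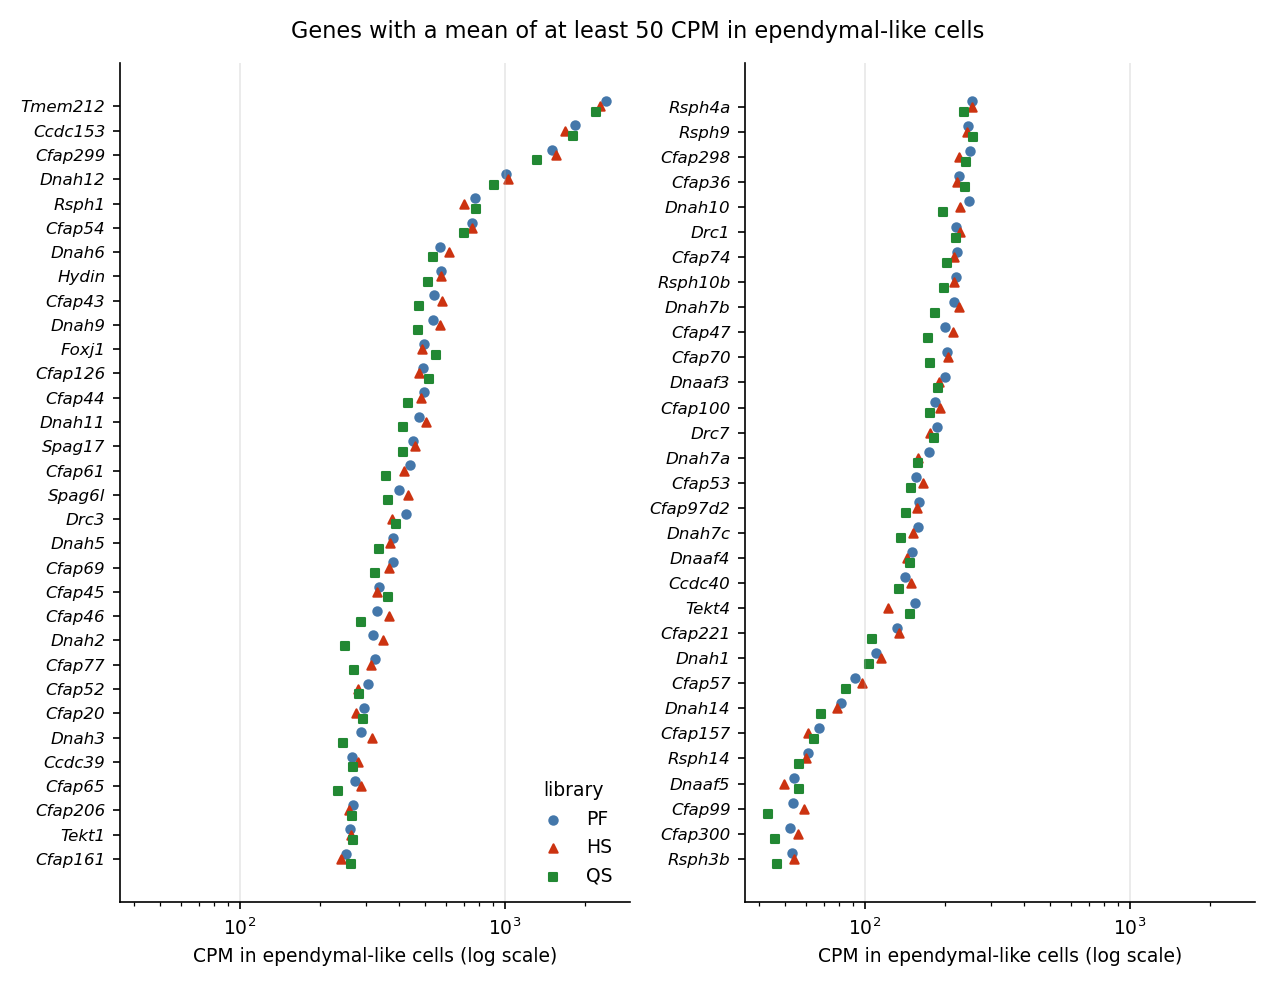
CPM in ependymal-like cells (x axis, log scale) of the genes with a mean of at least 50 CPM (y axis, in order of the mean), with 1 point per library. Levels run from above 2000 CPM for Tmem212 to just above 50 CPM for the lowest gene plotted, and for most genes the 3 library points nearly coincide.

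Foxj1, the transcription factor of the set (chr11:116330704-116335399), measured 497, 485 and 548 CPM. It was highest in QS, at 1.10 times PF (1.06 to 1.14) and 1.13 times HS (1.09 to 1.17). The 5 outer arm heavy chain genes together measured 1387, 1444 and 1219 CPM, nearly all of it from Dnah5, Dnah9 and Dnah11. Dnah9 measured 537, 570 and 471 CPM and Dnah11 472, 503 and 412 CPM, so both were lowest in QS. The testis chains Dnah8 and Dnah17 stayed below 1 CPM, with 19 and 7 UMIs in all over the 3 libraries.

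The 10 inner arm heavy chain genes summed to 3176, 3267 and 2787 CPM. Dnah12 led them with 1013, 1031 and 909 CPM, followed by Dnah6 with 569, 617 and 535. Dnah7a, Dnah7b and Dnah7c are near-identical copies on chromosome 1, and how the counting divided reads among them is uncertain. In ependymal-like cells Dnah7b measured 217, 227 and 184 CPM, Dnah7a 175, 158 and 159, and Dnah7c 158, 151.4 and 136. Astrocyte-like cells held Dnah7b at 128, 128 and 132 CPM, or 0.62 times its mean ependymal-like level, yet Dnah7a at 1.42, 2.26 and 1.90 CPM and Dnah7c at 11.6, 13.4 and 15.6 CPM. The copies thus differed in the class outside the ependyma in which they were counted, in all 3 libraries.

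The 8 central apparatus genes summed to 3238, 3297 and 2912 CPM, with QS lowest. Cfap54 measured 749, 752 and 704 CPM. Hydin, a giant projection protein of the central pair whose loss causes hydrocephalus in mice, measured 577, 576 and 513 CPM. Spag17 measured 452, 458 and 412 CPM and Spag6l 400, 432 and 363 CPM. All 4 were lowest in QS.

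Radial spoke genes summed to 1629, 1552 and 1590 CPM, with HS lowest. Rsph1, a spoke head component, supplied 773, 700 and 776 of these. Rsph3a and Rsph3b, near-identical copies on chromosome 17, measured 22.7, 26.04 and 18.4 CPM and 53.2, 53.9 and 46.7 CPM. The 5 genes of the nexin-dynein regulatory complex and of the ruler that sets the axonemal repeat summed to 1238, 1209 and 1194 CPM. Its ruler genes Ccdc39 and Ccdc40 measured 266, 278 and 268 CPM and 142, 149 and 134 CPM.

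The 11 microtubule inner protein genes were the one structural group whose sum was highest in QS, at 2286, 2186 and 2323 CPM. Cfap126 measured 490, 475 and 516 CPM and Cfap45 335, 330 and 362 CPM. The tektins, filament proteins within the doublet, were low apart from Tekt1 and Tekt4. Tekt4 measured 155, 122 and 147 CPM, Tekt3 21.3, 16.4 and 17.4, Tekt2 14.2, 16.5 and 22.7, and Tekt5 2.45, 3.28 and 3.12.

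The 7 dynein assembly factor genes summed to 799, 751 and 762 CPM. Among the Dnaaf genes, Dnaaf3 led with 200, 191 and 188 CPM, followed by Dnaaf4 with 150, 145 and 148 CPM. Dnaaf5 measured 54.0, 49.6 and 56.2 CPM and Dnaaf1 50.01, 43.7 and 42.5 CPM. Dnaaf2, at 41.8, 40.1 and 39.4 CPM, was counted more broadly: 34.1% of its UMIs came from ependymal-like cells, against 90.4% for Dnaaf1. T or NK cell-like cells, of which there were 64, 99 and 91, held Dnaaf2 at 0.46 times its ependymal-like level.

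Several other genes of the set were also counted in many cell types. Cfap97 had 24.5% of its UMIs in ependymal-like cells and a mean of 31.8 CPM in astrocyte-like cells against 36.5 in ependymal-like cells. Cfap410 reached 0.831 of its ependymal-like level in tanycyte-like cells. Cfap20, an inner junction protein gene, had a mean of 166 CPM in pericyte-like cells and 288 in ependymal-like cells. Cfap36 had 136 CPM in tanycyte-like, 101 in oligodendrocyte-like and 230 in ependymal-like cells. These genes were highest in ependymal-like cells in each library, but by less than 2 times the next class.

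The promoters of genes that were counted together in ependymal-like cells were searched for the motifs of the factors named in the background, and the stretches around the matches are shown to let a reader see the letters. RefSeq windows (GRCm38.p6) from 250 bases before the start to 50 from the start on were found for 64 of the 78 genes. On either strand, the arm of the X-box, GTTGCCA, occurred in 15 of the 64 (23.4%) and in 5.01% of 20203 other genes. The full X-box with both arms in opposite orientation, which overlaps the single arm, occurred in 1 member (Cfap298, named after its values were seen) and in 0.342% of other genes. The forkhead core TGTTTAC, which does not overlap the other motifs, occurred in 4 members (6.25%) and in 3.62% of other genes. A match describes letters and shows neither binding nor its absence.

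Capitals mark the motif, and on the minus strand of a gene the X-box arm reads TGGCAAC and the forkhead core GTAAACA. Hydin has a X-box arm 14 bases before its start, shown in chr8:110266903-110267006, plus strand. Cfap43 has a forkhead match 55 bases before the start, in chr19:47837350-47837476, minus strand. Cfap20 holds both motifs, in chr8:95434898-95435111, minus strand. Dnah10 (chr5:124725035-124725114, plus strand) and Dnaaf4 (chr9:72958731-72958814, plus strand) carry the X-box arm 10 and 6 bases after the start, and Dnah7b (chr1:46066630-46066756, plus strand) carries it 163 bases before. Each stretch is written 5′ to 3′ along the gene.
Hydin: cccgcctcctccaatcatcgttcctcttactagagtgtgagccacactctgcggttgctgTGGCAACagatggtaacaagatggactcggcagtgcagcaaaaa
Cfap43: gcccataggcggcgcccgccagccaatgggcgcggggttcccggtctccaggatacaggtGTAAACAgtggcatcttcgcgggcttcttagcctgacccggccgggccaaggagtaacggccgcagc
Cfap20: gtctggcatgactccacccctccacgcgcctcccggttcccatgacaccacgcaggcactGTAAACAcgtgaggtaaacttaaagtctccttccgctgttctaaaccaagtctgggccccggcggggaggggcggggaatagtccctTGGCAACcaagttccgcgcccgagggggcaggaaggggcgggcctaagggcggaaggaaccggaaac
Dnah10: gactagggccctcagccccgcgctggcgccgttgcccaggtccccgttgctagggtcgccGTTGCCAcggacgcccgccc
Dnah7b: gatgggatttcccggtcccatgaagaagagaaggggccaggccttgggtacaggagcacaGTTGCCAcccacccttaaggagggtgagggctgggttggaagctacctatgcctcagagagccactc
Dnaaf4: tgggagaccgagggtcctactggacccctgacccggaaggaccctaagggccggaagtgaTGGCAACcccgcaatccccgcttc
The 6 shown are the named genes with a match and a mean of at least 100 CPM in ependymal-like cells. They range from Hydin at a mean of 555 CPM to Dnaaf4 at 148 CPM, and they include both a broadly counted gene, Cfap20, and restricted ones such as Hydin.

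Each ependymal-like cell carried RNA of the set. Each cell was thinned to 2000 UMIs, which left out 3, 3 and 2 ependymal-like cells. All 905, 1037 and 861 remaining cells had UMIs of the set (lower 95% limits of 99.6%, 99.6% and 99.6%), and without thinning the share was 100% as well. The median cell had 48, 47 and 43 of its 2000 UMIs from the set, spread over 27, 27 and 26 genes. Of tanycyte-like cells 98.2%, 96.2% and 97.3% had at least 1 such UMI, with medians of 8, 6 and 7. Of endothelial-like cells, which lack motile cilia, 56.1%, 58.6% and 54.8% had at least 1, with a median of 1. Unthinned median depths were 9905.5, 10544 and 11392 UMIs in ependymal-like, 7638.5, 7383 and 7280 in tanycyte-like and 5594, 5747 and 5324 in endothelial-like cells.

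**Figure D3:**
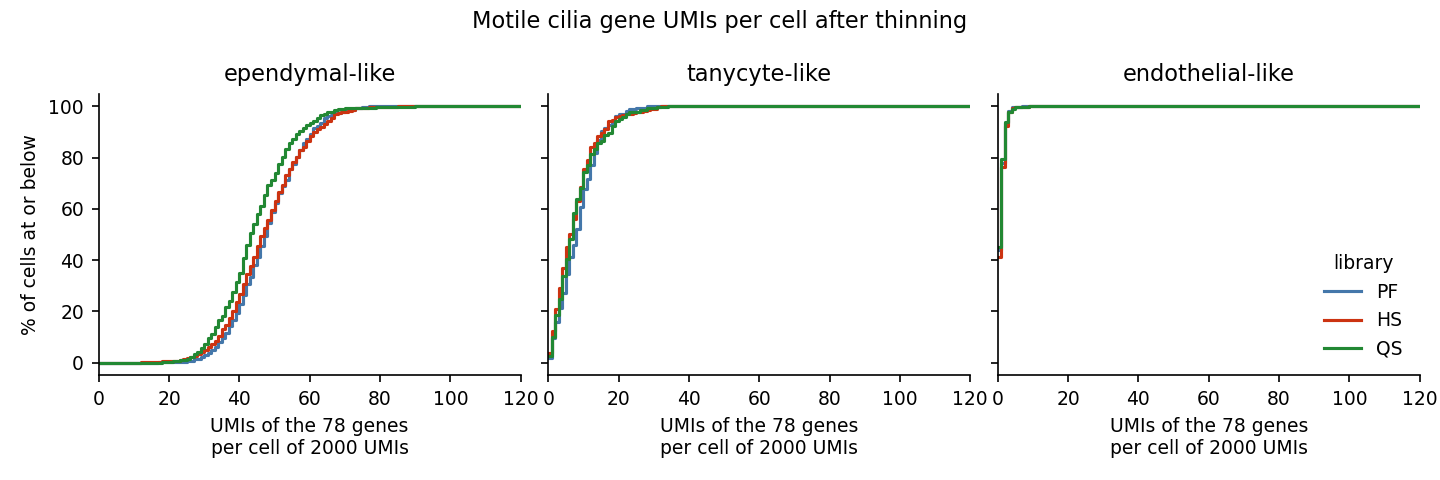
Cumulative share of cells (y axis, %) by the number of UMIs of the 78 genes among 2000 UMIs per cell (x axis), for 3 classes, with 1 line per library. The median ependymal-like cell has 43 to 48 such UMIs, the median tanycyte-like cell 6 to 8 and the median endothelial-like cell 1.

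The share of cells with a given gene separated tanycyte-like cells from background for some genes and not for others. After thinning, Tmem212 was found in 99.1%, 98.8% and 98.0% of ependymal-like cells, in 4.85%, 5.20% and 3.75% of tanycyte-like cells and in 4.44%, 4.87% and 3.73% of endothelial-like cells. Its tanycyte-like shares thus lay at the background of endothelial-like cells. Dnah11 was found in 58.2%, 61.8% and 54.4% of ependymal-like, 29.1%, 23.1% and 26.3% of tanycyte-like and 0.596%, 0.770% and 0.398% of endothelial-like cells. Its tanycyte-like shares lay far above that background.

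Between heat-exposed and intake-matched mice the set barely differed in ependymal-like cells. The summed level in HS was 0.989 times PF (0.984 to 0.994), and this ratio passed 1 with doublets kept (1.002) and in cluster 15 alone (1.024). A gene was called where its CPM differed by a ratio of at least 1.5 either way, with an interval that excludes 1 and at least 30 UMIs in the library with more. Of the 73 measured genes, 0 were called higher and 0 lower, where 1.7% of all 14154 measured genes were higher and 1.55% lower. The median log2 ratio was -0.02 over the 73 genes and 0.01 over all measured genes. The lowest ratios belonged to Tekt3 (0.771) and Tekt4 (0.788), and the highest to Tekt5 (1.34, from 28 and 49 UMIs) and Tekt2 (1.17). Cfap46, a central apparatus gene, was 1.11 times PF, at 328 and 364 CPM.

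In recovery the set was slightly lower. The summed QS level was 0.927 times PF (0.922 to 0.932), and 59 of the 73 measured genes had ratios below 1. Their median log2 ratio was -0.13, against -0.02 over all 13836 measured genes, of which 45.4% had ratios above 1. Of the 73 genes 1 was called higher and 0 lower, where 1.76% of all measured genes were higher and 2.71% lower. That gene was Tekt2 (chr4:126322121-126325688), at 14.2, 16.5 and 22.7 CPM from 162, 247 and 269 UMIs, with a QS ratio of 1.60 to PF (1.31 to 1.96). In cluster 5 alone its ratio was 1.45 and it was not called, and in cluster 15 alone it was 2.58. The lowest ratio, 0.763 (0.665 to 0.874), was that of Cfap73, at 42.4, 37.5 and 32.3 CPM. Dnah2 was 0.786 (0.748 to 0.825) and Dnah10 0.796 (0.753 to 0.841) times PF.

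Set against HS, with the same QS library, the summed QS level was 0.937 (0.932 to 0.942). The count was 0 called higher and 0 lower of 73, where 2.24% of 14174 genes were higher and 3.32% lower. The median log2 ratio was -0.13, against -0.03 over all measured genes. The lowest ratios were those of Rsph3a (0.707), Dnah2 (0.718), Cfap99 (0.733) and Dnah3 (0.782). The highest were those of Tekt2 (1.37), Tekt4 (1.20), Dnaaf5 (1.13) and Foxj1 (1.13).

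The size of the QS ratio went with the length of the gene. Of the 20 measured genes of the set that span at least 100 kb, all 20 were below PF, with a median ratio of 0.875, while 70.6% of 2101 other genes of that span were below PF, with a median of 0.929. Between 20 and 100 kb the medians were 0.921 for 39 genes of the set and 0.980 for other genes, and under 20 kb they were 0.985 for 14 and 1.01 for other genes. In QS against HS the 3 medians from long to short were 0.864, 0.940 and 1.04 for the set and 0.891, 0.969 and 1.018 for other genes. Spearman's rho between span and ratio over the 73 genes was -0.55 against PF and -0.63 against HS, and -0.17 and -0.22 over other genes. Between HS and PF it had the opposite sign, 0.28 over the 73 genes (0.39 in cluster 5) and 0.11 over other genes, with medians of 1.015, 0.983 and 0.961 for the set from long to short genes. All genes in such a correlation come from the same libraries, so it is a description and carries no p. Outer arm, inner arm and central apparatus genes have median spans of 268, 201 and 83.9 kb, and their QS sums were 0.879, 0.878 and 0.899 times PF. Radial spoke, microtubule inner protein and assembly factor genes have median spans of 28.3, 21.99 and 14.3 kb, and their ratios were 0.976, 1.016 and 0.953. The nexin-dynein and ruler genes (36.7 kb) stood at 0.965 and the members without a group (38.7 kb) at 0.913. By gene, the median log2 ratios of outer arm, inner arm and central apparatus genes were -0.19, -0.22 and -0.15. Those of radial spoke, inner protein and assembly factor genes were -0.12, 0.04 and -0.08.

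The relation to span was present in both ependymal-like clusters, with rho of -0.53 in cluster 5 and -0.51 in cluster 15 for QS against PF, and was near 0 in tanycyte-like cells (0.05 over 59 genes). Over other genes it differed between classes in direction: in astrocyte-like cells 25.1% of long genes were below PF and 76.5% of genes under 20 kb were. In oligodendrocyte-like cells these shares were 36.3% and 58.0%. In vascular smooth muscle-like cells they were 73.6% and 42.4%, and in endothelial-like cells 58.6% and 46.7%, the direction seen in ependymal-like cells. Against HS, 80.0% of long genes were lower in vascular smooth muscle-like, 70.4% in endothelial-like and 44.5% in astrocyte-like cells. No source used here says whether intronic reads were counted. In ependymal-like cells the share of Malat1, a nuclear RNA, was 1.62%, 1.66% and 1.66% of UMIs, and that of mitochondrial RNA 4.17%, 4.01% and 3.75%.

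**Figure D4:**
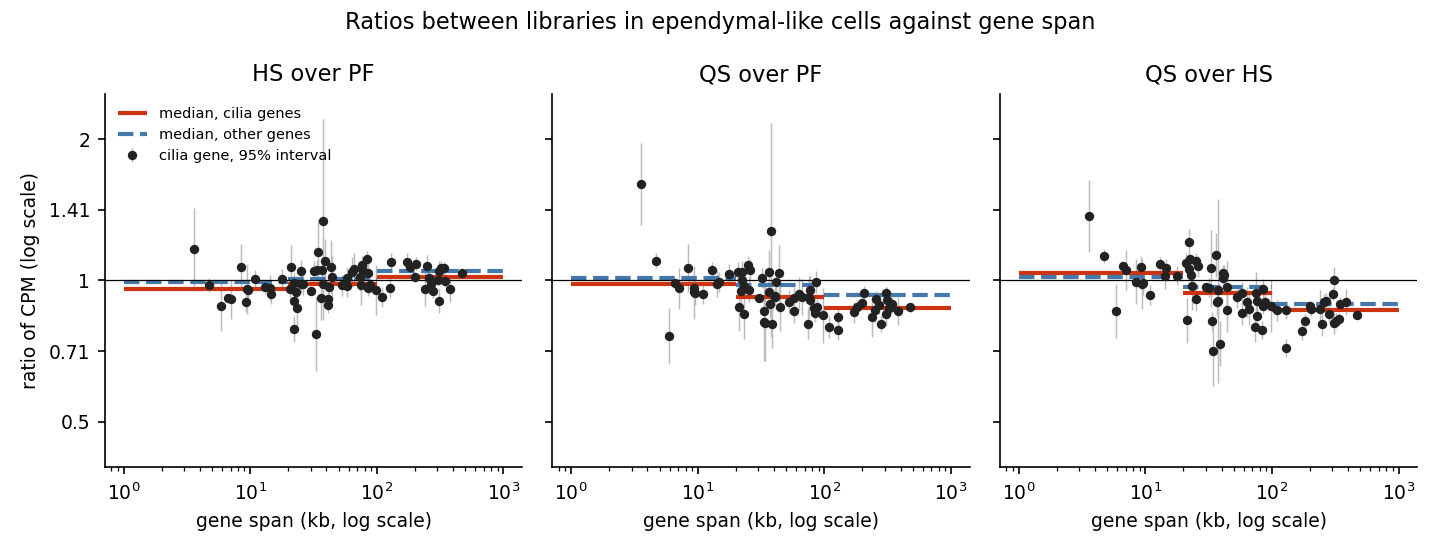
Ratio of CPM between libraries in ependymal-like cells (y axis, log scale) against gene span (x axis, kb, log scale), 1 panel per comparison, with points and 95% counting intervals for the measured genes of the set, and lines for the medians of the set and of other genes in 3 span ranges. In both panels with QS the medians fall from short to long genes, to 0.875 (QS over PF) and 0.864 (QS over HS) at 100 kb and above.

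In ependymal-like cells other axoneme genes gave a QS to PF ratio of like size, and ciliary transport genes one nearer 1. Of 62 other axoneme genes in the files, a list that includes dynein light and intermediate chains and ciliary tip proteins, 61 were measured and 0 were called in any of the 3 comparisons. Their sum was 17742, 17578 and 16604 CPM, and QS was 0.936 times PF (0.930 to 0.942). Of 33 intraflagellar transport and BBSome genes, which move cargo along cilia of all kinds, 0 were called, and QS was 0.967 times PF (0.955 to 0.978). The 16 ependymal genes without a ciliary role had 0 called, and their sum in QS was 1.03 times PF. Gene spans, with which the QS ratios went, were not compared between these lists and the set.

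Among 18 regulators of ciliogenesis, 16 were measured between QS and PF, with 1 called higher and 1 lower. Plk4, the kinase that starts centriole assembly, measured 4.38 CPM in PF and 8.02 in QS (ratio 1.83, 1.29 to 2.63). Gmnc, which sets the multiciliated fate, measured 16.2 and 10.5 CPM (0.646, 0.511 to 0.816). Between QS and HS, Ccno, a cyclin-like gene needed for the mass production of centrioles, was called higher, at 24.2 CPM in HS and 38.2 in QS (1.58, 1.37 to 1.82). Rfx3, an X-box binding factor, measured 538, 549 and 433 CPM and was 0.805 times PF in QS (0.776 to 0.836). Rfx3 and Foxj1 thus stood on opposite sides of 1 in that comparison. No allowance was made for gene span, with which the QS ratios went in this class.

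Both ependymal-like clusters carried the set at like levels. Summed CPM was 23319, 23018 and 21676 in cluster 5 and 24732, 25316 and 22937 in cluster 15. In all 3 libraries 2 genes had a ratio of at least 1.5 with an interval above 1 in cluster 15 over cluster 5, Dnah7a and Tekt3, and 2 had the reverse, Dnah14 and Tekt2. This contrast between clusters was not counted over all genes. Dnah7a measured 152, 144 and 137 CPM in cluster 5 and 234, 222 and 231 in cluster 15. Dnah14, an inner arm heavy chain gene named after its values were seen, measured 110.5, 95.01 and 88.1 CPM in cluster 5 and 5.11, 5.75 and 2.90 in cluster 15. Its ranges in the 2 clusters were far apart in every library. With cluster 15 alone, 1 gene was called higher (1.99% of all genes) and 2 lower (4.46%) between QS and PF, and 0 higher (2.93%) and 3 lower (5.09%) between QS and HS. Between HS and PF 0 of 70 were called there, where 1.88% of all genes were higher and 2.25% lower. The lower genes were Cfap73 and Cfap58 against PF and Cfap99, Dnah2 and Rsph3a against HS, of which Cfap58 is named after its values were seen.

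Tanycyte-like cells held the set unevenly. In cluster 14, where the 10 ependymal markers summed to 1630, 1439 and 1434 CPM, the set summed to 4980, 4638 and 4370 CPM, or 0.210, 0.198 and 0.199 times the ependymal-like level. In cluster 25, with 829, 774 and 778 CPM of ependymal markers, the set summed to 1251, 1366 and 1399 CPM, or 0.0528, 0.0583 and 0.0637 times. In all 3 libraries 48 of the 78 genes were higher in cluster 14 than in cluster 25, by a ratio of at least 1.5 with an interval above 1, and only Cfap20 was lower in all 3. The same count was not made over all genes, and clusters are drawn to differ, so these counts only describe the clusters. Cfap20 measured 110, 112 and 107 CPM in cluster 14 and 209, 203 and 205 in cluster 25. Dnah11 measured 210, 200 and 198 CPM in cluster 14 and 21.0, 34.9 and 17.5 in cluster 25.

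Within cluster 14 the genes did not share 1 ratio to ependymal-like cells. Over the 55 genes with a mean of at least 100 CPM in ependymal-like cells, the mean level in cluster 14 ran from 1.01% to 58.2% of the ependymal-like level, with a median of 26.4%. Dnah7b stood at 53.5%, Ccdc39 at 45.8% and Dnah11 at 43.8%. Foxj1 stood at 14.99%, Hydin at 12.1% and Rsph1 at 11.8%. Spag17 stood at 3.54%, Tmem212 at 1.51% and Ccdc153 at 1.01%, the latter pair close to their endothelial-like levels of 0.88% and 0.73%. The medians over the same 55 genes were 3.88% in cluster 25 and 0.888% in endothelial-like cells. By CPM, the leading genes of the tanycyte-like class were Cfap20 (148, 160 and 143), Cfap36 (139, 127 and 141), Cfap54 (153, 114 and 135), Dnah11 (137, 112 and 133) and Cfap126 (128, 92.0 and 111).

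**Figure D5:**
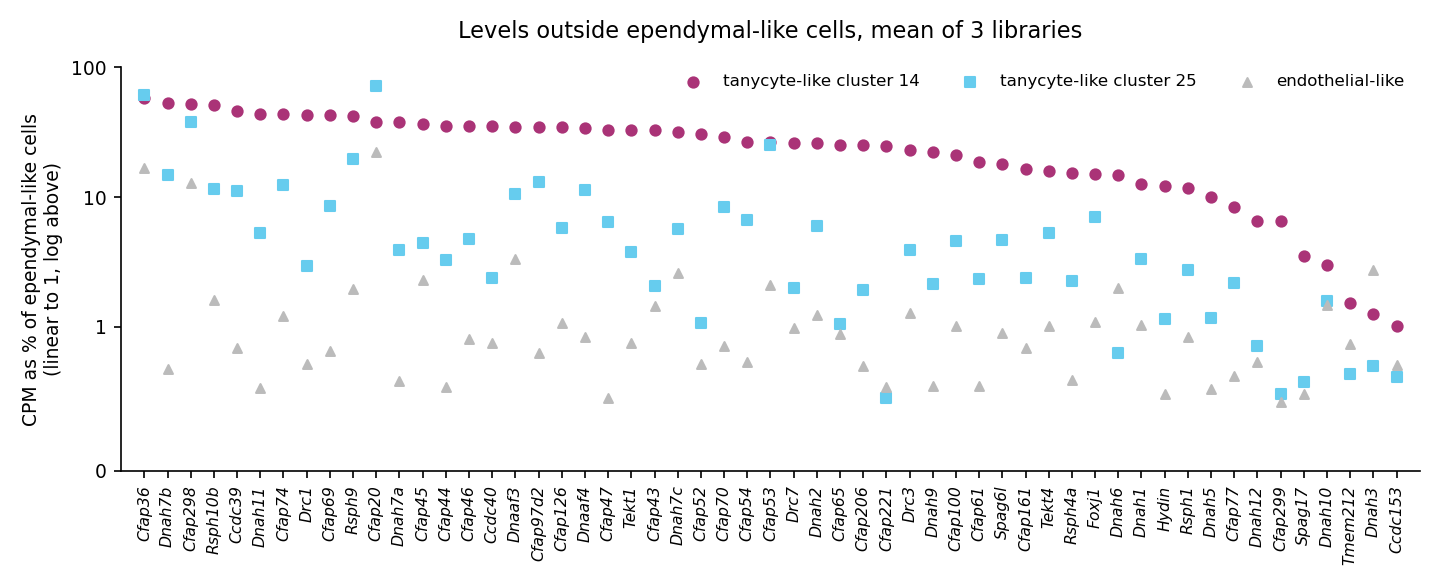
Mean CPM over 3 libraries as a percentage of ependymal-like cells (y axis, linear to 1 and log above) for the 55 genes with at least 100 CPM there (x axis, ordered by cluster 14), in tanycyte-like clusters 14 and 25 and in endothelial-like cells. Values in cluster 14 run from 58.2% to 1.01%, and at the right end, with Tmem212 and Ccdc153, they come close to those in endothelial-like cells.

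Between conditions, more genes of the set were called in tanycyte-like than in ependymal-like cells, with far fewer UMIs behind each. Of 64 genes measured between HS and PF, 0 were called higher and 7 lower, where 3.45% of all genes were higher and 4.3% lower. The 7 were Spag17, Cfap99, Cfap73, Hydin, Rsph4a, Drc3 and Dnah1. The class had another make-up in HS: cluster 14, which holds more of the set, was 78.7%, 70.02% and 77.95% of tanycyte-like cells in PF, HS and QS. Within cluster 14 alone 0 of 61 were higher (3.67% of all genes) and 2 lower (2.84%), Cfap99 and Cfap73. Cfap73 measured 30.6, 13.95 and 13.88 CPM there, from 32, 32 and 25 UMIs. In cluster 25, with 38 PF cells, the calls went the other way, though the UMI limit for measured genes favoured higher calls there. Of 35 genes measured there, 4 were higher in HS (4.18% of all genes) and 0 lower (5.42%): Cfap126, Cfap53, Cfap299 and Tekt1, the last pair from 2 and 1 UMIs in PF. Cfap126 measured 15.02 and 33.7 CPM in PF and HS, a ratio of 2.25 (1.17 to 4.85). The set had 833 UMIs there in PF and 3521 in HS, and a gene was measured by its UMIs in the library with more. A low gene could thus pass where HS was higher yet fail where PF was higher. All 4 called genes passed through HS only. The part of this limit in the direction of the calls was not tested.

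Lists outside the set also had summed HS to PF ratios below 1 in tanycyte-like cells, some of like size and some nearer 1. The summed set was 0.823 times PF (0.799 to 0.848). The other axoneme genes were 0.832 (0.806 to 0.859), with 8 of 57 called lower. The ependymal genes without a ciliary role were 0.828 (0.814 to 0.842), with 1 of 15 higher and 2 lower. Intraflagellar transport and BBSome genes were 0.888 and ciliary regulators 0.912. By gene, the median log2 ratio was -0.29 in the set, -0.31 in other axoneme genes and -0.10 in the ependymal genes. It was -0.23 in transport and BBSome genes, -0.04 in regulators and -0.06 over all genes. The 10 ependymal markers, which are all on the axoneme or the ependymal list and so are no separate measure, summed to 1319 and 1087 CPM. The summed endothelial markers moved with the class too, at 1121, 609 and 581 CPM, and their part in the result was not tested.

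In recovery Foxj1 was the gene of the set called higher in tanycyte-like cells. It measured 46.1, 51.7 and 80.6 CPM from 79, 252 and 228 UMIs, a QS ratio of 1.75 to PF (1.35 to 2.29) and of 1.56 to HS (1.30 to 1.87). Within cluster 14 it measured 55.4, 70.6 and 103 CPM, 1.86 times PF (1.38 to 2.55), so the difference was as large without cluster 25. After thinning, 9.70%, 9.95% and 16.4% of tanycyte-like cells had a Foxj1 UMI, against 1.19%, 1.36% and 1.19% of endothelial-like cells. In cluster 25 Foxj1 was 1.30 times PF (0.750 to 2.30) and not called. Of 59 genes measured between QS and PF in the class, 1 was higher (3.95% of all genes) and 2 lower (3.14%), Cfap73 and Rsph1, shares close to those of all genes, and 25 of the 59 ratios were above 1. In cluster 14 alone, of 56 genes, 1 was higher (5.4%) and 4 lower (3.55%): Cfap73, Dnaaf3, Hydin and Rsph1. Hydin measured 86.9, 59.7 and 55.0 CPM there and Rsph1 109, 89.4 and 67.7. In cluster 25 alone, of 12 genes, 2 were higher (4.95%), Cfap126 at 2.46 (1.20 to 5.54) and Cfap53 at 2.07 (1.14 to 3.99), and 0 lower (5.12%). Both passed the UMI limit through QS only, with 38 and 48 UMIs against 10 and 15 in PF. Neutrophil markers also differed between the libraries of this class, at 2.92, 25.9 and 159 CPM in the class and 3.82, 35.3 and 249 CPM in cluster 14, and their part was not tested.

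Between QS and HS, 3 of 64 genes were called higher in the class (3.57% of all genes), Foxj1, Dnah7a and Tekt4, and 0 lower (2.66%). In cluster 14 alone 0 of 61 were higher (3.56%) and 3 lower (3.3%), Cfap77, Cfap57 and Rsph3a, of which Cfap77 and Cfap57 are named after their values were seen. The ratio of Foxj1 was 1.46 (1.18 to 1.82) there, short of the 1.5 needed for a call. In cluster 25 alone 0 of 35 were higher (3.51%) and 3 lower (3.5%), Tmem212, Cfap299 and Dnah11. The set had 3521 UMIs there in HS and 1437 in QS, so the UMI limit favoured lower calls. All 3 passed it through HS only.

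Outside ependymal-like and tanycyte-like cells the genes differed in level, from broadly counted ones such as Cfap20 to others counted little. A subset of 60 genes was chosen by measured values, a mean of at least 50 CPM in ependymal-like cells and under 0.5 of that in every other class, so its low level elsewhere follows from the choice. Its median there was 0.723% to 1.75% of the ependymal-like level, and single genes reached 28.1% in astrocyte-like cells (Cfap97d2) and 32.1% in fibroblast-like cells (Cfap300). In endothelial-like cells the 60 genes summed to 248, 282 and 230 CPM, and over all kept cells to 3307, 4061 and 3461 CPM, so HS was highest in both. Of 66 genes measured in endothelial-like cells, 5 were higher (2.46% of all genes) and 0 lower (1.33%) in HS against PF, 0 higher (2.04%) and 14 lower (4.52%) in QS against HS. Of 65 between QS and PF, 2 were higher (1.58%) and 3 lower (3.33%). Carry-over of RNA between cells as a part of these differences was not tested.

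Cluster 13 was left unnamed because its depth was low and none of its 10 leading genes was an ependymal marker. Those leading genes did include Cfap299, Dnah12, Dnah11 and Cfap54 of the set and Spag16, another axoneme gene. It had medians of 1045.5, 1253 and 1444 UMIs in 246, 251 and 233 cells, and 8 of the 10 ependymal markers passed in it. The set made up 1.96%, 1.89% and 1.83% of its UMIs, or 0.826, 0.805 and 0.832 times the ependymal-like level. Relative to ependymal-like cells, long genes stood higher in it than short ones: the median ratio was 1.04 for 20 genes of at least 100 kb, 0.745 for 37 genes of 20 to 100 kb and 0.594 for 13 shorter genes (rho 0.73 over 70 genes). Foxj1 measured 399, 215 and 284 CPM there and Dnah9 523, 583 and 547 CPM. Mitochondrial UMIs were 7.74%, 7.79% and 7.74% in cluster 13, against 4.17%, 4.01% and 3.75% in ependymal-like cells. Malat1 was 2.01%, 2.22% and 2.26% of UMIs in cluster 13, against 1.62%, 1.66% and 1.66%. Of 57 genes measured there, 0 were higher (6.23% of all genes) and 7 lower (6.13%) in HS against PF, 0 higher (7.92%) and 1 lower (6.71%) in QS against PF, and 2 higher (7%) and 4 lower (7.63%) in QS against HS. Markers of other cell types moved with the HS library of this cluster: pituitary markers summed to 458, 2364 and 31.9 CPM, erythroid markers to 247, 1210 and 148 CPM and neutrophil markers to 10.8, 635 and 1.88 CPM, while ependymal markers summed to 5064, 3600 and 4010 CPM. Their part in these counts was not tested.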

How the data were processed

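The authors deposited UMI counts per gene and barcode, whole numbers with no normalization. They were made with Cell Ranger on mm10, version 7.0.1 per the file headers and 5.0.0 per the submitters' processing notes, where Seurat 3.1.2 is named too. No source used here says whether introns were counted.

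Barcodes with at least 500 UMIs, 200 genes and at most 20% mitochondrial UMIs were kept, which removed 194, 208 and 211. Scrublet in Scanpy 1.11.5, at an expected 0.8% per 1000 barcodes, removed 784, 672 and 727 doublets. Counts scaled to 10000 per cell and log-transformed gave 2000 variable genes without the 78 members, 30 components, 15 neighbours and Leiden clusters at resolution 1 (leidenalg 0.10.2, seed 0). A class name needed at least 3 markers in 25% of cells at 4 times the median cluster, and a second class scoring at most 75% of it. No other class could have more markers among the cluster's 10 leading genes. A name was withheld where depth was below the library median divided by 3 and no marker of the class was among those genes. These thresholds were set after clusters were seen. The 11 classes that had 50 or more cells per library were compared. The members and lists were chosen with earlier results of these data known.

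UMIs were summed per class and library. Ratios of CPM carry exact conditional binomial 95% intervals and shares exact Clopper-Pearson ones. The ratio and call step was tested on simulated counts. Thinning drew 2000 UMIs per cell without replacement. Gene spans and coordinates are those of GENCODE M21. Named members are the 8 chosen by symbol, the 12 of highest ependymal-like CPM, the 4 highest and 4 lowest ratios per comparison, the 8 highest in another class relative to ependymal-like cells, the 5 highest in tanycyte-like cells, all Dnaaf genes and near-identical copies. Members called in tanycyte-like cells or in a single cluster, genes in which the classes differed in direction, and genes given to show the range there, are named after their values were seen. The 2 highest and 2 lowest ratios of each other list could be named. Software was Python 3.11.15, NumPy 2.4.6, SciPy 1.17.1 and pandas 2.3.3. Raw reads were not used here.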

Additional observations from a re-analysis of the deposited data

Results flagged for a closer look

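In 9 genes of the set, with 11 ratios between libraries, tanycyte-like cells moved one way and ependymal-like cells the other, each with an interval that excludes 1. With 1 library a group the difference between classes was not tested. Such opposite pairs were not counted over all genes, so the 11 have no share of all genes beside them. In HS against PF, 12.8% of all genes measured in ependymal-like cells had an interval above 1 and 11.8% below 1. In tanycyte-like cells those shares were 7.85% and 11.7%. In QS against HS they were 14.5% and 20.6% in ependymal-like cells and 11.4% and 8.91% in tanycyte-like cells. In HS against PF the tanycyte-like ratio was 0.729 for Cfap65, 0.724 for Cfap46, 0.730 for Dnah2, 0.823 for Dnah11 and 0.7104 for Cfap43, while the ependymal-like ratios were 1.05, 1.11, 1.09, 1.06 and 1.07. In QS against HS the tanycyte-like ratio was 1.43 for Dnah7c, 1.22 for Cfap69, 1.19 for Cfap54, 1.18 for Dnah11, 1.38 for Dnah12 and 1.48 for Cfap43, while the ependymal-like ratios were 0.901, 0.885, 0.936, 0.820, 0.882 and 0.822. Within cluster 14 alone all 11 intervals include 1, with ratios of 0.902, 0.907, 0.860, 0.951 and 0.885 for the first 5 and of 1.11, 1.01, 0.987, 0.992, 1.03 and 1.10 for the others. In cluster 25 alone 10 of the 11 intervals include 1, and the ratios do not all follow the class: Dnah11 was 1.66 (0.940 to 3.16) in HS against PF and 0.502 (0.285 to 0.839) in QS against HS, opposite to its class ratios. By number of cells, not by UMIs, cluster 14 was 70.02% of the tanycyte-like class in HS and 78.7% and 77.95% in PF and QS.

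Cluster 29 entered no comparison of classes and carried the set at 6828 CPM in the QS library, between tanycyte-like and ependymal-like levels. It had 62 cells in QS, 3 in HS and 1 in PF, and its endothelial markers summed to 8973 CPM and its ependymal markers to 3058 CPM in QS. Oligodendrocyte, vascular smooth muscle and astrocyte markers summed to 2306, 1239 and 1100 CPM there, and all other marker lists to less. The median depth in QS was 2717 UMIs, and Lcn2, Ackr1 and Ptgs2 led its genes. Doublets there, beyond those removed, were not tested.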

How the results depend on the processing

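The summed QS level in ependymal-like cells stayed below PF and HS under all 12 alternatives to each ratio. QS over PF was 0.952 with doublets kept, 0.915 with at least 1000 UMIs per cell and 0.941 with median-of-ratios scaling. QS over HS was 0.944 with the members among the clustering genes, 0.950 with doublets kept, 0.927 with at least 1000 UMIs, 0.967 with at most 10% mitochondrial UMIs, 0.955 with median-of-ratios scaling and 0.906 with cluster 15 alone. HS over PF crossed 1, at 1.002 with doublets kept and 1.024 with cluster 15 alone, and was 0.982 with other cilia genes also left out of clustering and 0.961 with at most 10% mitochondrial UMIs. Between QS and PF 0 genes were called at a ratio of at least 2 or in cluster 5 alone and 3 in cluster 15 alone, and between QS and HS 3 in cluster 15 alone. The tanycyte-like over ependymal-like ratio in PF, HS and QS was 0.160, 0.127 and 0.154 with doublets kept, 0.142, 0.116 and 0.143 with 5% of free RNA subtracted, 0.143, 0.115 and 0.143 against cluster 15 alone, 0.210, 0.198 and 0.199 for cluster 14 alone and 0.0528, 0.0583 and 0.0637 for cluster 25 alone. In HS it was 0.127 with other cilia genes left out, 0.126 at Leiden resolution 2 and against cluster 5 alone and 0.133 with at most 10% mitochondrial UMIs, and in QS 0.158 with at least 1000 UMIs and 0.173 with at most 10% mitochondrial UMIs. The settings with single clusters were chosen after seeing the data. Of 1686 recomputed ratios of 47 named genes 97 left the interval of the main value, and the 29 that moved by over 1.5 times belonged to Dnah17, Dnah2os, Dnah8, Rsph6a, Tekt5 and Tekt2. No paired analysis was possible because each group has 1 library. Depth limits the calls in tanycyte-like cells, where 14 to 19 of the 78 genes had fewer than 30 UMIs in either library of a comparison.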
